A study of Sus scrofa with 8 samples.

Results

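The endoplasmic reticulum (ER) stress response was followed through 10 genes chosen by symbol, of which 7 had a row among the 21607 identifiers of the mRNA table. The genes measured were HSPA5, HSP90B1, CALR, PDIA4, DNAJB9, XBP1 and ATF6, and all 7 were above 0 in every library. DDIT3, ATF4 and HERPUD1 carry Ensembl identifiers (ENSSSCG00000050998, ENSSSCG00000059058 and ENSSSCG00000040663) that match no row, so they were not analysed here. The livers came from 4 Yana sows, pigs of an indigenous breed of China that were healthy and not related to each other: 2 were young, at 180 days, and 2 were old, at 8 years, with no treatment given in the labels of either group. The paper states that the young sows had never given birth. The old sows had borne litters for many years and were removed from the herd for spent production. Age and this history cannot be told apart in these livers. Livers are numbered within each age as the replicates in the labels. Each sow gave 1 rRNA-depleted, paired-end RNA-seq library from frozen tissue, so every value below stands for 1 animal and 1 piece of liver. The question addressed was whether the genes of this response differ between young and old liver.

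The ER folds the proteins that a cell secretes, and hepatocytes load it heavily because they make most plasma proteins. When unfolded proteins build up, the sensors ERN1, EIF2AK3 and ATF6 switch on the unfolded protein response, which raises chaperones, slows translation and sends misfolded proteins to degradation. ATF6 is activated by cleavage and XBP1 by an unusual splicing step, and neither step can be read from a value per gene, so the levels below are those of the transcripts and not of the active factors.

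The deposited values are named TPM by the authors, but within a library each is a whole number of reads times a single step that is the same for every gene. They are therefore given here as CPM, reads times 1 step per library, with no gene length in them. Levels are compared between livers and not between genes. The libraries held between 28324675 and 52207649 reads of listed mRNAs and lncRNAs, more in the young livers than in the old ones. The mRNA values added up to 408898 and 428910 CPM in young liver and to 365330 and 346173 CPM in old livers 1 and 2. Because this sum was lower in the old livers, results are also given under other scalings where these alter a direction. Of 18 hepatocyte markers 15 were measured, and 5 of the 15 (33.3%) had both old livers below both young livers while 0 had both above. Both old livers were below for 25.0% of all mRNAs tested and 37.6% of those with a mean of at least 5 CPM. They were above for 24.4% and 16.7%. ALB (albumin), one of the 5, measured 29468 and 35205 CPM in young and 16534 and 23978 CPM in old liver, and APOC3, the most abundant marker and also one of the 5, measured 38924 and 41068 CPM in young and 27977 and 25036 CPM in old liver. Others overlapped between the ages, such as APOA1, an apolipoprotein, at 1064 and 1156 and then 1898 and 894 CPM, and ASGR1, a receptor of hepatocytes, at 207 and 167 and then 168 and 182 CPM. In bulk tissue, fewer cells of a type cannot be told apart from less RNA per cell.

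The chaperones did not separate young from old livers. They separated the old livers from each other, with old liver 1 above and old liver 2 below both young livers for HSPA5, HSP90B1, PDIA4 and DNAJB9. XBP1 and ATF6 were lower in both old livers than in both young livers, XBP1 by the larger fold. In limma over all 16898 mRNAs tested, no member of the 7 reached an adjusted p-value below 0.05, and 0% of all mRNAs tested did so with an absolute log2 fold change above 1 (2654 mRNAs, 15.7%, had an unadjusted p-value under 0.05). The tests on read counts called none of the 7 genes either, where the exact test of edgeR called 3.16%, DESeq2 called 5.65% and the quasi-likelihood test of edgeR called 0% of the mRNAs with an adjusted p-value. With 2 livers against 2, an exact permutation test of a single gene cannot give a two-sided p below 0.333. In simulated data of this size, limma made 0 adjusted calls among 50 genes changed 16-fold. The absence of adjusted calls in limma therefore does not show that the genes were unchanged.

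HSPA5 (ENSSSCG00000005601) encodes BiP, the main HSP70 chaperone of the ER, which also holds the stress sensors inactive. Its level was 97.2 and 68.8 CPM in young liver (8930 and 5953 reads), 207 CPM in old liver 1 (12728 reads) and 47.4 CPM in old liver 2 (3408 reads). Old liver 1 was thus the highest of all livers, at 2.49 times the mean of the young livers, and old liver 2 the lowest, at 0.572 times that mean. The 4.36-fold ratio between the old livers (95% interval from read counts 4.20 to 4.53) exceeded the 1.41-fold ratio between the young livers. The mean over old livers was 127 ± 113 CPM (SD, n = 2) against 83.0 ± 20.1 CPM (SD, n = 2) in young livers, and the log2 fold change on log2(CPM + 1) was 0.28 (standard error 0.85, adjusted p = 0.919, limma). The 95% interval of that fold change, from -2.31 to 2.87, spans large differences in either direction.

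HSP90B1 (ENSSSCG00000000849), or GRP94, is the HSP90 chaperone of the ER lumen. It was at 210 and 175 CPM in young liver, 287 CPM in old liver 1 and 79.3 CPM in old liver 2. The order of the livers was that seen for HSPA5, and the old livers lay 3.62-fold apart (3.52 to 3.73). The log2 fold change of old against young was -0.34 ± 0.74 (SE; adjusted p = 0.874, limma), and its sign turned under upper quartile scaling and in all tests on read counts.

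PDIA4 (ENSSSCG00000015453), or ERp72, forms and rearranges disulfide bonds in newly made proteins. The young livers were nearly equal, at 50.2 and 49.7 CPM, whereas old liver 1 had 101 CPM and old liver 2 had 36.9 CPM. The level in old liver 1 was therefore 2.03 times the mean of the young livers, and that of old liver 2 was 26.2% below it. The log2 fold change of old against young was 0.29 ± 0.57 (SE; adjusted p = 0.861, limma).

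DNAJB9 (ENSSSCG00000016653), or ERdj4, is a J-domain co-chaperone of HSPA5 that holds ERN1 in check. It had 9.19 and 9.87 CPM in young liver (844 and 854 reads), 10.9 CPM in old liver 1 (670 reads) and 6.52 CPM in old liver 2 (468 reads). The excess in old liver 1 was small, and the old livers differed 1.67-fold (1.48 to 1.88). The log2 fold change of old against young was -0.15 ± 0.28 (SE; adjusted p = 0.843, limma), with the opposite sign under TMM and upper quartile scaling and in the tests on read counts.

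CALR (ENSSSCG00000013746), or calreticulin, binds calcium and retains glycoproteins until they are folded. Its level was 209 and 266 CPM in young liver, 266 CPM in old liver 1 and 177 CPM in old liver 2. Old liver 1 lay inside the range of the young livers, and old liver 2 below it. The log2 fold change of old against young was -0.12 ± 0.29 (SE; adjusted p = 0.891, limma), and it was above 0 under TMM and upper quartile scaling and in the tests on read counts.

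**Figure D1:**
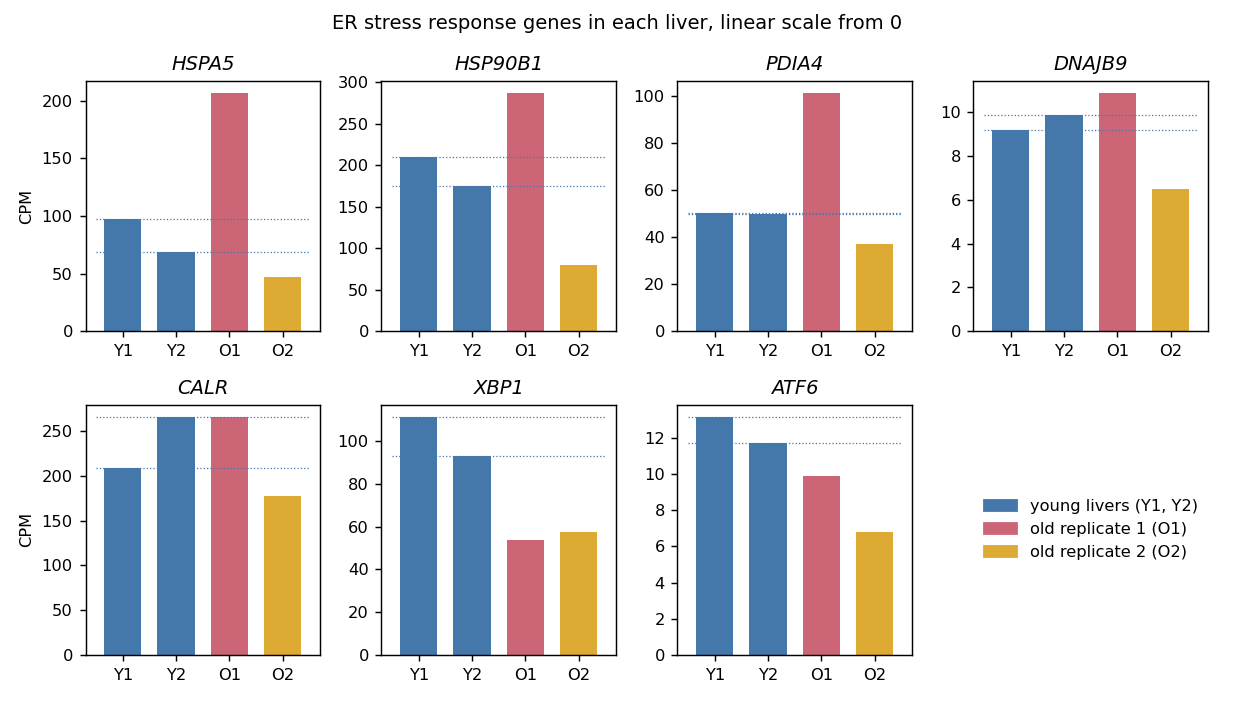
CPM (y axis, linear, from 0) of each of the 7 ER stress response genes in young livers 1 and 2 (Y1, Y2) and old livers 1 and 2 (O1, O2), with 1 bar per liver and dotted lines at the levels of the young livers. For HSPA5, HSP90B1, PDIA4 and DNAJB9 the bar of O1 is above and that of O2 below both dotted lines, while for XBP1 and ATF6 both old bars are below them.

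XBP1 (ENSSSCG00000030996) encodes the transcription factor of the ERN1 branch, which drives chaperone, degradation and lipid genes. It was at 112 and 93.1 CPM in young liver (10245 and 8059 reads) and at 53.6 and 57.5 CPM in old liver (3300 and 4129 reads). The groups did not overlap, and the old livers were alike, in contrast to the chaperones. The mean was 102 ± 13.0 CPM (SD, n = 2) in young livers and 55.6 ± 2.73 CPM (SD, n = 2) in old livers, a ratio of 0.543. The log2 fold change was -0.86 (standard error 0.15, 95% interval -1.33 to -0.40), with an unadjusted p = 0.00853 and an adjusted p = 0.223 in limma. It stayed below 0 in all 14 alternatives, between -0.99 and -0.42, and its adjusted p-value ranged from 0.209 to 0.717 there. XBP1 could not change sign under the other filters, limma-trend or the replicate block, which leave a log2 fold change as it is. Nor could it when 1 liver was left out, since the ages did not overlap. Its unadjusted p was 0.0632 without old liver 1 and 0.0526 without old liver 2. With all livers kept, it was 0.0518 with a pseudocount of 0.1, 0.0902 under upper quartile scaling, and 0.0807 in the quasi-likelihood and 0.187 in the exact test of edgeR. XBP1 was the single gene of the 7 with an unadjusted p-value under 0.05, where 8.93% of all mRNAs tested, and 18.0% of those with a mean of at least 5 CPM, were lower in old livers at that level.

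ATF6 (ENSSSCG00000006346) is itself a sensor, a membrane protein of the ER that becomes a transcription factor once cleaved in the Golgi. It had 13.2 and 11.7 CPM in young liver (1210 and 1016 reads), 9.88 CPM in old liver 1 (608 reads) and 6.81 CPM in old liver 2 (489 reads). Both old livers were below both young livers, and the log2 fold change of old against young was -0.54 ± 0.22 (SE; adjusted p = 0.387, limma). With values scaled to an equal upper quartile, old liver 1 moved to 11.3 against 11.6 and 9.80 in the young livers, so that the groups overlapped, and the log2 fold change was -0.14. Both old livers were below both young livers for 2 of the 7 genes, where 25.0% of all mRNAs tested and 37.6% of those with a mean of at least 5 CPM were so. Both old livers were above for 0 of the 7 genes, against 24.4% of all mRNAs tested, and the ages did not overlap in either direction for 49.3%.

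**Figure D2:**
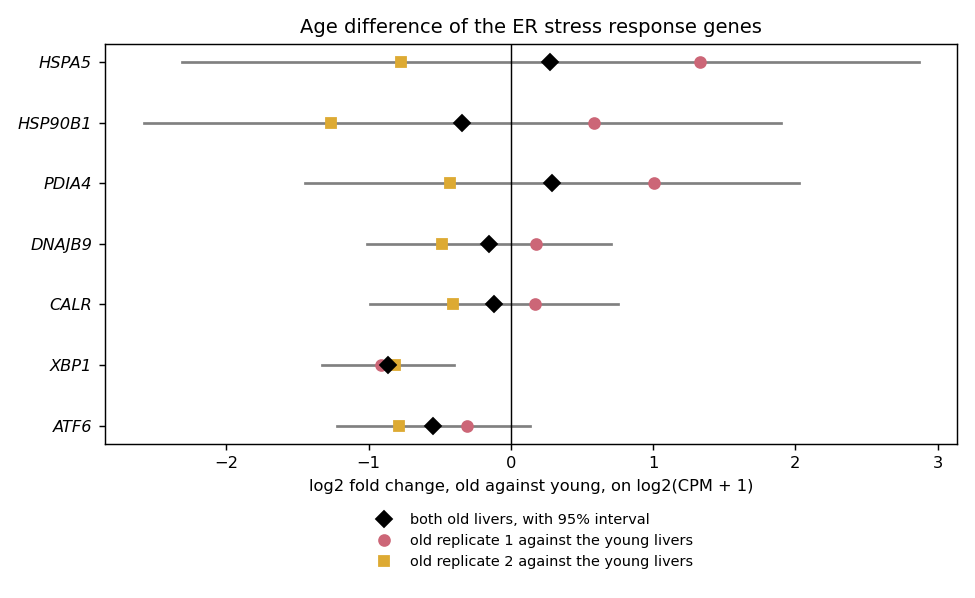
Log2 fold change of old against young livers on log2(CPM + 1) for the 7 genes. Black diamonds with grey lines are the estimate from all 4 livers and its 95% interval in limma, red circles compare old liver 1 alone and yellow squares old liver 2 alone with the young livers. The 3 symbols lie close together for XBP1, and for HSPA5, HSP90B1 and PDIA4 the circle and the square lie far apart on opposite sides of 0.

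The split between the old livers was read from these values and was not set as a comparison beforehand. Old liver 1 above and old liver 2 below both young livers held for 4 of the 7 genes, against 4.85% of all mRNAs tested and 8.26% of those with a mean of at least 5 CPM. It held for 5 of the 7 under TMM scaling, where CALR joined, and for 3 under upper quartile scaling, where PDIA4 left (5.28% and 4.08% of all mRNAs tested). Old liver 2 was below both young livers for all 7 genes as deposited and under TMM scaling, and for 5 of the 7 under upper quartile scaling (35.5%, 29.2% and 19.8% of all mRNAs tested). Among mRNAs with a mean of at least 5 CPM, 52.1% were so as deposited. The percentile of a gene among the mRNAs above 0 in a liver does not depend on a scaling factor, but it does depend on how many mRNAs are above 0, which was 15230 and 14291 for young and 17262 and 16978 for old liver. The longer lists of the old livers place a gene of the same rank at a higher percentile. HSP90B1 stood at percentile 98.3 and 97.9 in the young livers and lower, at 97.1, in old liver 2. XBP1 held percentiles 97.4 and 96.6 in young liver against 96.2 and 96.3 in old liver, a lower rank in both old sows. HSPA5, DNAJB9 and ATF6 were also lower in old liver 2 than in both young livers, HSPA5 only barely (95.73 against 95.75 in young liver 2). CALR was not, at 98.5 against 98.3 and 98.4, nor was PDIA4, at 94.7 against 95.2 and 94.5. By percentile ATF6 in old liver 1, at 85.5, was inside the range of the young livers, 86.1 and 84.1.

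Over the 7 genes, the median log2 fold change was -0.15, beside -0.02 over all mRNAs tested and -0.24 over those with a mean of at least 5 CPM. The median of the 7 genes was -0.77 without old liver 1 and 0.18 without old liver 2, and between -0.21 and -0.11 without either young liver. Without old liver 1, 4 of the genes (HSP90B1, PDIA4, DNAJB9 and ATF6) were lower at an unadjusted p-value under 0.05, where 6.95% of all mRNAs tested and 15.0% of those with a mean of at least 5 CPM were so. Without old liver 2, PDIA4 was higher (unadjusted p = 0.00814, adjusted p = 0.256, limma), where 8.60% of all mRNAs tested and 10% of those with a mean of at least 5 CPM were so. In these fits 1 old liver stands for its age and is taken to vary as the young livers do.

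Levels relative to XBP1 in the same liver are also free of scaling. The ratio of HSPA5 to XBP1 was 0.872 and 0.739 in young liver, 3.86 in old liver 1 and 0.825 in old liver 2. In old liver 2 the lower HSPA5 thus went with a lower XBP1, and the ratio was that of the young livers. The ratio of PDIA4 to XBP1 was 0.450 and 0.534 in the young livers and higher in both old livers, at 1.89 and 0.641. DNAJB9 and CALR also had a higher ratio in both old livers, at 0.203 and 0.113 against 0.0824 and 0.106 for DNAJB9, and at 4.96 and 3.08 against 1.87 and 2.86 for CALR. A lower XBP1 raises each ratio, and in old liver 2 the levels of PDIA4, DNAJB9 and CALR themselves were below those of both young livers. The ratio of ATF6 to XBP1 was 0.118 and 0.126 in young liver, 0.184 in old liver 1 and 0.118 in old liver 2. For each of the 6 genes, old liver 1 had the highest ratio.

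**Figure D3:**
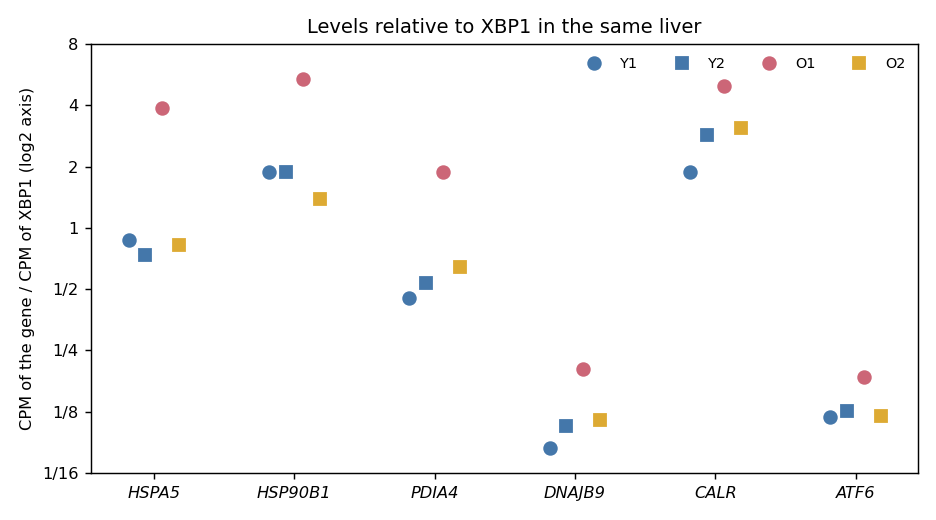
CPM of each gene divided by the CPM of XBP1 in the same liver (log2 axis), with circles for replicate 1 and squares for replicate 2 and blue for young, red and yellow for old livers. The red circle of old liver 1 is the highest point for all 6 genes, and the square of old liver 2 is close to or inside the range of the young livers except for HSP90B1, where it is below it. Heights are to be compared within a gene only, since gene length does not enter the values.

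Of 182 further genes of the pathway, in 8 lists, 134 were measured. In limma, 8 of them (5.97%) were higher and 19 (14.2%) lower in old livers by an unadjusted p-value under 0.05, beside 6.78% and 8.93% of all mRNAs tested and 7.88% and 18.0% of those with a mean of at least 5 CPM. None passed the adjusted threshold. The same shares of all mRNAs apply to the counts of each list below. The median log2 fold change of the 134 genes was -0.20, and it was -0.35 without old liver 1 and 0.03 without old liver 2. With all livers, it was -0.02 over all mRNAs tested and -0.24 over those with a mean of at least 5 CPM. Their values are given as deposited, and their order under other scalings was not tested.

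Among sensors and activators, 7 of 12 genes were measured. CREB3, a transcription factor anchored in the ER membrane, was lower in both old livers, at 52.4 and 53.7 CPM in young and 25.9 and 31.0 CPM in old liver (log2 fold change -0.88, unadjusted p = 0.00718, adjusted p = 0.217, limma). CREB3L3, its relative enriched in liver, was at 70.4 and 126 CPM in young and 48.9 and 40.9 CPM in old liver. NFE2L2, an activator of antioxidant genes and a substrate of EIF2AK3, was at 21.0 and 46.5 CPM and then 13.3 and 12.3 CPM. Like XBP1 and ATF6, these 3 factors had both old livers below both young livers, but the young livers differed widely for CREB3L3 and NFE2L2 and neither reached an unadjusted p-value under 0.05. EIF2AK3 (PERK), the kinase that slows translation, was at 2.33 and 2.66 CPM in young and 2.03 and 1.23 CPM in old liver. The opposite order was found for MBTPS1, the protease that cleaves ATF6, at 4.81 and 4.62 CPM in young and 5.69 and 7.71 CPM in old liver, and for CREB3L2, at 1.82 and 1.84 and then 2.49 and 4.09 CPM. ATF6B, the paralog of ATF6, overlapped between ages, at 7.25 and 14.7 and then 8.92 and 8.46 CPM.

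The targets of the integrated stress response, which run through ATF4 and DDIT3, were measured for 17 of 23 genes, of which 2 were higher and none lower (unadjusted p-value under 0.05). ATF5, a transcription factor translated under stress, was at 46.2 and 25.1 CPM in young and 69.9 and 111 CPM in old liver (log2 fold change 1.35, unadjusted p = 0.0482, adjusted p = 0.314, limma). PSAT1, an enzyme of serine synthesis, had 45.0 and 54.8 CPM in young liver, 6.57 CPM in old liver 1 and 44.6 CPM in old liver 2. PSAT1 was thus low in the liver whose chaperones were high, but it does not stand for the list, in which old liver 1 was above old liver 2 for 11 of 17 genes, with a median difference of 0.12 on log2(CPM + 1). ATF3 and PPP1R15A, named after their values were seen, were highest in old liver 2, at 14.7 and 10.9 CPM, against 2.05 and 3.79 CPM in old liver 1 and at most 1.16 and 2.02 CPM in young liver. ATF3 also belongs to the immediate early genes, and that list moved with it. Its 9 tested members were all above both young livers in old liver 2, as were 34.7% of all mRNAs tested. They summed to 344 CPM in old liver 2, 112 CPM in old liver 1 and 15.5 to 19.0 CPM in young liver, with FOS at 206 CPM in old liver 2. The part of this list in the levels of ATF3 and PPP1R15A was not tested.

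Several other ER chaperones and co-chaperones had the order of livers seen for HSPA5. Of 17 measured out of 23, old liver 1 was above and old liver 2 below both young livers for 7 (41.2%), namely HYOU1, DNAJB11, DNAJC3, DNAJC1, SDF2, UGGT1 and CRELD2, against 4.85% of all mRNAs tested and 8.26% of those with a mean of at least 5 CPM. DNAJC1 counted by a narrow margin, at 5.85 CPM in both old liver 1 and young liver 1. The share was 0% to 16% in the other 7 pathway lists, 14.9% over all 134 genes, 25.0% in the cytosolic heat shock genes and 46.2% in the interferon-stimulated genes. Of the 17, 2 were higher and 2 lower in old livers (unadjusted p-value under 0.05). HYOU1, the HSP110-type partner of HSPA5, was at 8.09 and 5.94 CPM in young liver, 13.9 CPM in old liver 1 and 5.01 CPM in old liver 2. DNAJB11, a J-domain partner of HSPA5, was at 8.46 and 10.1, 14.1 and 3.91 CPM in the same order. CRELD2, a small ER protein induced by stress, showed the widest gap of the list, with 5.02 and 4.46 CPM in young liver, 21.6 CPM in old liver 1 and 4.27 CPM in old liver 2. These 3 were named after their values were seen. By the rule for named genes, SIL1, the exchange factor of HSPA5, was lower in both old livers (38.3 and 27.1, then 18.4 and 15.9 CPM; unadjusted p = 0.0275, adjusted p = 0.270, limma), and CNPY3, which serves HSP90B1, was higher (26.6 and 20.7, then 33.7 and 35.5 CPM; unadjusted p = 0.0481, adjusted p = 0.314, limma).

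Among protein disulfide isomerases and oxidases, 15 of 20 were measured, with none higher and 2 lower (unadjusted p-value under 0.05). PDIA6, a relative of PDIA4, was high in old liver 1, with 46.9 and 48.8 CPM in young liver, 102 CPM in old liver 1 and 51.9 CPM in old liver 2. TXNDC12, a small thioredoxin-like protein of the ER, was at 44.9 and 22.8 CPM in young and 20.1 and 15.8 CPM in old liver.

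ER-associated degradation, which exports misfolded proteins to the proteasome, was measured for 22 of 30 genes, with 2 higher and 6 lower (unadjusted p-value under 0.05) and a median log2 fold change of -0.20. RNF5, a ubiquitin ligase of the ER membrane, was at 61.4 and 63.5 CPM in young and 26.1 and 34.1 CPM in old liver (log2 fold change -1.04, unadjusted p = 0.00845, adjusted p = 0.223, limma). UBXN4, which docks the extracting ATPase VCP at the membrane, was at 59.0 and 58.3 and then 35.8 and 32.3 CPM (log2 fold change -0.77, unadjusted p = 0.00608, adjusted p = 0.217, limma). For both genes the old livers were closer to each other than to the young livers. The rule that named these genes asks for no overlap between ages and a large fold change, so it favours this order.

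The translocon and N-glycan transfer genes were measured for 25 of 29, with none higher and 2 lower (unadjusted p-value under 0.05). Old liver 1 was above old liver 2 for 23 of the 25, where 49.5% of all mRNAs tested were. SEC62, a subunit of the import channel, was at 111 and 86.6 CPM in young liver, 78.3 CPM in old liver 1 and 40.3 CPM in old liver 2. RPN2, a subunit of the oligosaccharyltransferase, was at 64.2 and 79.4, then 57.7 and 39.6 CPM. In transport between ER and Golgi, 22 of 28 genes were measured, 1 (4.55%) higher and 5 (22.7%) lower (unadjusted p-value under 0.05). Of all mRNAs tested 6.78% and 8.93% were so, and 7.88% and 18.0% of those with a mean of at least 5 CPM. KDELR3, a receptor that returns ER chaperones from the Golgi, was at 11.9 and 9.53 CPM in young liver, 8.22 CPM in old liver 1 and 1.61 CPM in old liver 2 (116 reads), and COPB1, a COPI coat subunit, at 22.3 and 16.9 and then 9.05 and 8.58 CPM.

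Of the genes that link ER stress to death or survival of the cell, 9 of 18 were measured, 1 higher and 1 lower (unadjusted p-value under 0.05), with a median log2 fold change of 0.26. TMBIM6, which guards the ER against calcium-driven death, was at 371 and 396 CPM in young liver and lower, at 196 and 250 CPM, in old liver (log2 fold change -0.79, unadjusted p = 0.0174, limma). BCAP31, an ER membrane protein cleaved during apoptosis, was at 85.7 and 73.4 CPM in young liver, 133 CPM in old liver 1 and 88.6 CPM in old liver 2.

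**Figure D4:**
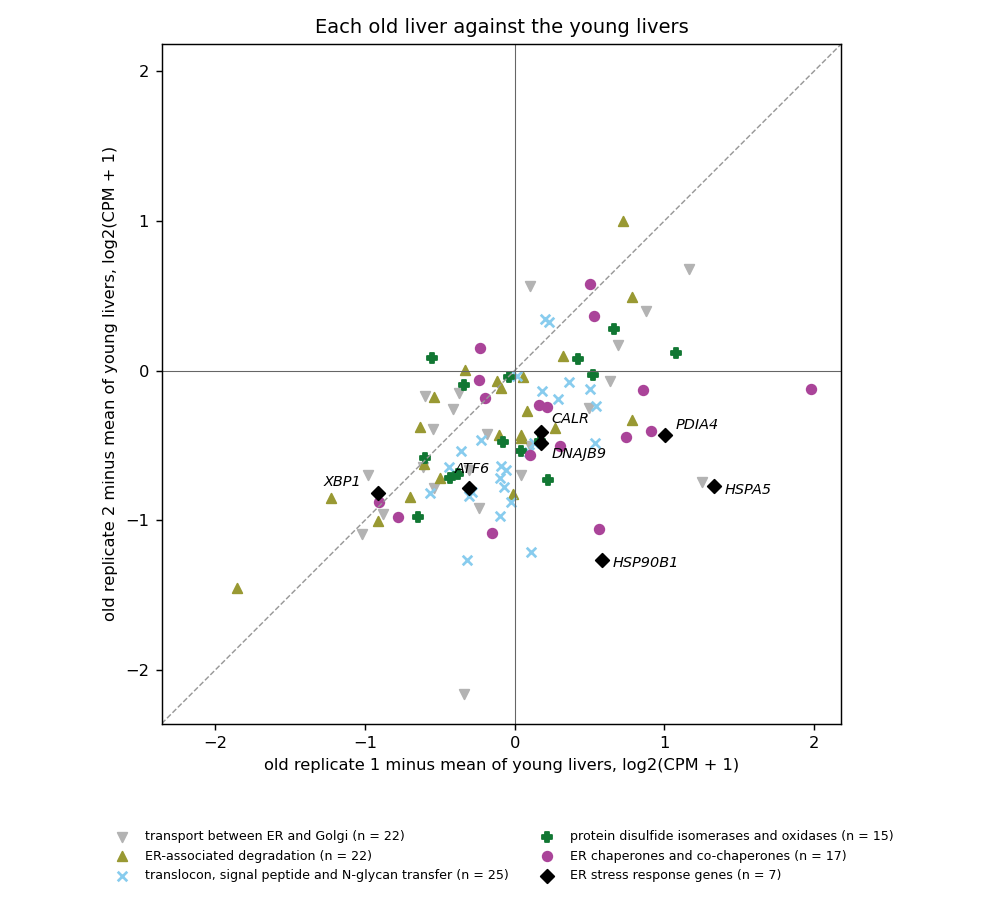
Difference from the mean of the young livers on log2(CPM + 1), with old liver 1 on the x axis and old liver 2 on the y axis, for the 7 ER stress response genes (black diamonds, named) and 5 pathway lists. The dashed line marks equal differences. HSPA5, HSP90B1, PDIA4, DNAJB9 and CALR lie at the lower right, up in old liver 1 and down in old liver 2, and XBP1 is near the dashed line at the lower left.

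**Figure D5:**
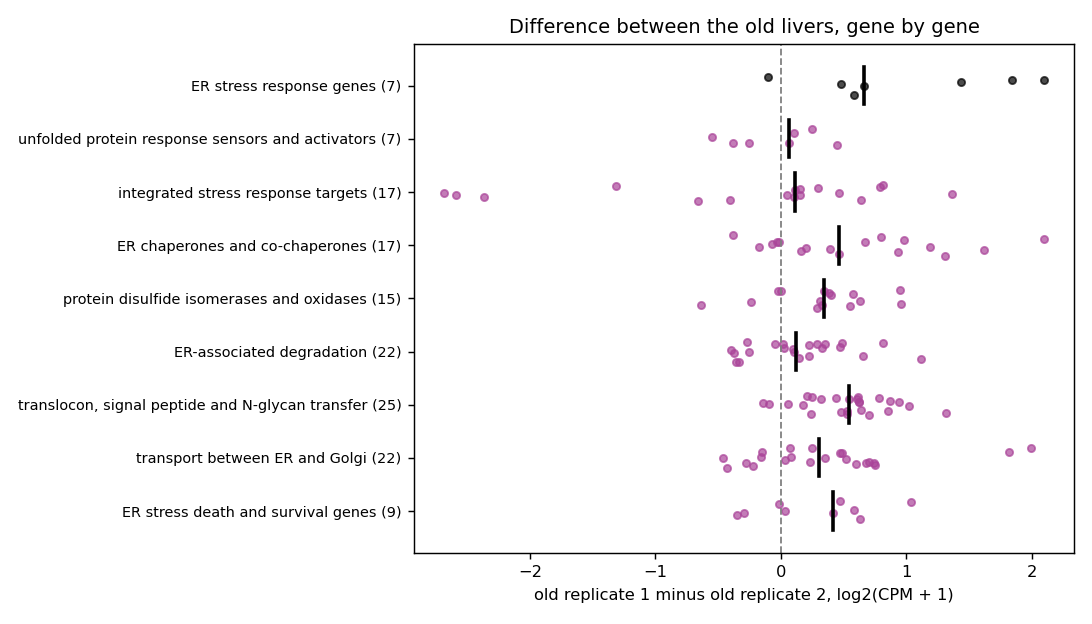
Old liver 1 minus old liver 2 on log2(CPM + 1), with 1 point per gene and a black bar at the median of each list (number of genes in brackets). The dashed line is the median over all mRNAs tested. The medians of the ER stress response genes, 0.66, the translocon genes, 0.54, and the ER chaperones, 0.46, are to the right of it.

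Other lists also set the old livers apart, and their part in the levels of the chaperones was not tested. All 26 interferon-stimulated genes tested were above both young livers in old liver 1, as were 35.5% of all mRNAs tested. These 26 genes summed to 2265 CPM in old liver 1 against 89.0 CPM in old liver 2 and 113 and 134 CPM in young liver. RSAD2 was the most abundant of them, with 618 CPM in old liver 1 and at most 2.28 CPM elsewhere. The cytosolic heat shock genes (12 of 15 tested) summed to 594 CPM in old liver 1, 463 CPM in old liver 2 and 473 to 562 CPM in young liver, and HSPA8, the constitutive HSP70 of the cytosol, had 235, 115, 181 and 143 CPM in that order of old and young livers. The hepatocyte markers summed to 62623 and 67433 CPM in the old and 89460 and 99159 CPM in young liver, sums made up mostly of ALB and APOC3. Gene by gene, old liver 1 was above old liver 2 for 5 of the 15, with a median difference of -0.54 on log2(CPM + 1). Old liver 1 was below both young livers for 10 of the 15 and old liver 2 for 7. Of all mRNAs tested 35.4% and 35.5% were so, and 52.5% and 52.1% of those with a mean of at least 5 CPM.

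Plasma cells are rich in ER chaperones and XBP1. Of 12 B and plasma cell markers 6 were measured, summing to 16.1 CPM in old liver 1, 6.31 CPM in old liver 2 and 3.31 and 5.77 CPM in young liver. MZB1, an ER protein of these cells, made up most of the sum in old liver 1 only. It was at 11.4 CPM there, 2.03 CPM in old liver 2 and 1.10 and 2.58 CPM in young liver. The list did not move together, with 3 of the 6 higher and 3 lower in old livers by log2 fold change. Old liver 1 was above old liver 2 for 4 of the 6, with a median difference of 0.05 on log2(CPM + 1). The macrophage markers (6 of 10) summed to 245 and 277 CPM in young and 392 and 386 CPM in old liver, with C1QA the highest, at 181 to 255 CPM. The T and NK cell markers (7 of 10) summed to 8.45 and 10.9 and then 20.7 and 13.6 CPM, led by CD2 at up to 8.82 CPM. The endothelial markers (6 of 10) summed to 44.7 and 40.9 and then 71.8 and 52.9 CPM, but they did not move together. LYVE1 was at 36.5 CPM in old liver 1 and 7.49 to 8.90 CPM in the other livers, while KDR was at 2.26 CPM in old liver 1 and 9.87 to 10.6 CPM in the others, and old liver 1 was above old liver 2 for 2 of the 6. Markers of stellate cells and fibroblasts (8 of 10) summed to 21.9 and 42.3 and then 24.5 and 64.4 CPM, with COL3A1 at up to 23.1 CPM. Those of cholangiocytes (6 of 8) summed to 21.8 and 26.8 and then 76.1 and 69.5 CPM. Most of the rise was CLDN4, at 12.4 and 15.0 CPM in young and 65.7 and 50.5 CPM in old liver. The list did not move together. Both old livers were above both young livers for 3 of the 6, and old liver 1 was below both for 2. Of all mRNAs tested 24.4% and 35.4% were so. Erythroid markers (6 of 9) summed to 622 and 429 and then 308 and 407 CPM, nearly all HBB, with KLF1 and EPB42 at 0 in the young livers. Skeletal muscle markers (3 of 10 tested) summed to at most 6.35 CPM, with DES at up to 4.19 CPM and MYL1 above 0 only in old liver 2, and pancreatic markers (3 of 10 tested) to at most 0.439 CPM, with CPA1 at 6 to 38 reads per library and PNLIP and GCG at 0 in all livers.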

How the data were processed

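The authors sequenced rRNA-depleted, directional libraries from 4 whole-liver samples, aligned the reads to the Sscrofa10.2 pig genome and deposited 1 value per mRNA and liver. TopHat2 2.0.14, StringTie 1.2.3 and Salmon 0.6.0 are named in the submitters' processing notes. The authors named the deposited values TPM, but they are given here as CPM, whole reads times 1 step per library. In a library, 99.9942% to 100% of the mRNA values above 0 are whole multiples of its step within the rounding to 3 decimals. No gene length enters. The read total that set the step is not known. Were it the listed mRNAs and lncRNAs, their values would add up to the same sum in every library, which they did not.

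Values were tested as log2(CPM + 1) with limma 3.58.1 in R 4.3.3 over the 16898 mRNAs that had reads in 2 or more libraries. P-values were adjusted by the Benjamini-Hochberg method, and a call needed an adjusted p-value below 0.05 and a log2 fold change beyond 1 in size. This test was chosen for values named TPM and kept as the main one when they proved to be scaled whole reads, whereas the study used the exact test of edgeR on counts. The choice sets the number of mRNAs called, which was 0 in limma, 534 in the exact test and 880 in DESeq2. Reads were recovered by dividing each value by the step, and were tested with edgeR 4.0.16 (exact and quasi-likelihood) and DESeq2 1.42.0 as alternatives. Other alternatives were a pseudocount of 0.1, other filters, TMM and upper quartile scaling, limma-trend, a replicate block and leaving out each liver. Scripts were tested on simulated data. There limma made 0 adjusted calls among 50 genes at each fold simulated, 2, 4, 8 and 16. An unadjusted p-value under 0.05 (limma) was reached by 40% of the genes at 2-fold, 98% at 16-fold and 7.56% of the unchanged genes. Intervals of ratios between livers cover counting error only, at 95% confidence.

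Groups were taken from the labels, and each library is a separate sow. The 10 genes and all lists were chosen with earlier results of these data known. Genes named were the 10 genes, every measured sensor, the 2 genes of each other pathway list with the largest absolute log2 fold change among those with a mean of at least 5 CPM and no overlap between ages, and the most abundant gene of each marker list. Genes outside this rule are said to be named after their values were seen, and ALB and the genes listed at 0 are given besides. Gene symbols were matched by Ensembl identifier. The circRNA and miRNA tables, promoter sequences and protein sequences were not used here, so no motif was searched. Some single marker genes are not reported here.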

Additional observations from a re-analysis of the deposited data

How the results depend on the processing

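With 2 livers per age and 2 residual degrees of freedom, intervals are wide and no alternative gave a member gene an adjusted call. XBP1 and ATF6 were lower in old livers under all 14 alternatives, and HSPA5 and PDIA4 higher under all 10 that kept every liver. Several alternatives could not turn a sign. Other filters, limma-trend and the replicate block leave a log2 fold change as it is. Leaving out 1 liver cannot turn it for XBP1 and ATF6, whose ages did not overlap. The sign turned under TMM scaling for CALR (0.082) and DNAJB9 (0.025), under upper quartile scaling for HSP90B1 (0.10), CALR (0.33) and DNAJB9 (0.25), in both edgeR tests for HSP90B1 (0.13), CALR (0.10) and DNAJB9 (0.068), and in DESeq2 for HSP90B1 (0.11), CALR (0.070) and DNAJB9 (0.043). The cause was not tested. Leaving out 1 liver gave log2 fold changes from -0.77 to 1.33 for HSPA5, -0.43 to 1.004 for PDIA4, -1.26 to 0.58 for HSP90B1, -0.41 to 0.17 for CALR and -0.49 to 0.18 for DNAJB9, a median over the 7 genes from -0.77 to 0.18, from 1 to 4 genes at an unadjusted p-value under 0.05, and 0 mRNAs changed in each case.

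The count of member genes at an unadjusted p-value under 0.05 was 1 as reported and 0 with a pseudocount of 0.1, upper quartile scaling or either edgeR test. Under upper quartile scaling, chosen for this count after seeing the data, 1 gene had both old livers below both young livers. The number of mRNAs changed was 0 as reported, 2 with a mean of at least 1 CPM, 534 in the exact test of edgeR and 880 in DESeq2. Among mRNAs at an unadjusted p-value under 0.05, 43.1% were higher in old livers as reported, 61.0% under TMM scaling, 80.8% under upper quartile scaling, 79.2% in the exact test, 79.0% in the quasi-likelihood test and 69.1% in DESeq2. Upper quartile scaling moved the median log2 fold change of all mRNAs by 0.14 and DESeq2 by 0.12.

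The labels give the replicate numbers without saying what they stand for. Across 16898 mRNAs, the difference between replicates 1 and 2 correlated between the ages at r = 0.0902. This value cannot show whether libraries of the same number shared a step of handling. A replicate block leaves the log2 fold changes as they are, so the median stayed at -0.15. With it, XBP1 had an adjusted p = 0.344 (limma) and 1 member gene had an unadjusted p-value under 0.05. The number of mRNAs called was 0 with and without the block.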

Other observations

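A few pathway genes outside the rule for naming were picked after their values were seen. TRAF2, an adaptor that the sensor ERN1 recruits, was at 0.621 and 0.647 CPM in young liver and 4.03 and 2.77 CPM in old liver (unadjusted p = 0.00405, limma). UBE2J1, a ubiquitin-conjugating enzyme of ER-associated degradation, was at 4.45 and 4.51 CPM in young liver and 1.92 and 1.73 CPM in old liver (unadjusted p = 0.00252, limma). For both genes the livers of each age were close together and the ages did not overlap, unlike the chaperones.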
